A study of Mus musculus with 4 samples.

Results

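The WNT ligands, their Frizzled receptors and their secreted inhibitors were followed through chromatin accessibility in cell lines of a mouse model of small-cell lung cancer (SCLC). The 38 genes were chosen by name, with earlier results of these data known, and no measured value enters the rule: the 19 Wnt ligands, *Fzd1* to *Fzd10*, the 8 secreted inhibitors *Sfrp1*, *Sfrp2*, *Sfrp4*, *Sfrp5*, *Dkk1*, *Dkk2*, *Dkk3* and *Wif1*, and *Axin2*. All 38 were found among the 21938 protein-coding genes of the mouse annotation. A locus is the gene body with 20 kb on each side, and the 38 loci joined where they touched to 34 stretches of 2.40 Mb in all. The loci of *Wnt1* and *Wnt10b*, *Wnt3* and *Wnt9b*, *Wnt3a* and *Wnt9a*, and *Wnt6* and *Wnt10a* overlap, so a peak between such neighbors counts for both.

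ATAC-seq, which maps open chromatin by where a transposase can insert into DNA, was performed on 4 libraries, each from its own line. SMC lines 1 and 2 (SMC1 and SMC2) came from NCAM-high CD44-low cells, named SCLC metastasizing cells, and non-SMC lines 1 and 2 (non-SMC1 and non-SMC2) from NCAM-low CD44-high cells, and all of them had been sorted from primary lung tumors of the RP model and grown in culture. The tumors of this model arise after Cre is delivered by an adenovirus, under the CMV promoter, to the airways of young adult mice with floxed *Rb1* and *Trp53*, so all 4 lines share the loss of both genes. Every line was untreated and of a mixed C57Bl/6, Balb-c and S129 background, and lines with the same number are labelled as pairs. The number of clones behind each line is not given in the sources used here.

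WNT ligands are secreted lipid-modified proteins that bind Frizzled receptors on the cell surface. Together with the LRP co-receptors this stops the breakdown of β-catenin, which then enters the nucleus and works with TCF/LEF factors on target genes, while other ligands signal through Frizzled without β-catenin. Secreted Frizzled-related proteins (the Sfrp genes) and *Wif1* bind the ligands, *Dkk1* and *Dkk2* bind the LRP co-receptors, and *Axin2* is a scaffold of the β-catenin destruction complex and itself a β-catenin target. In the developing lung, *Wnt2* and *Wnt2b* specify the lung field and *Wnt7b* supports its growth.

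Stretches of DNA from regions found in a single cell type are printed first. Each is the 101 bases centered on the summit of the highest peak of such a region. The region had a peak in both lines of a type and in neither line of the other. Only the members named by the rule given with the processing were ranked, which leaves out *Fzd6* and *Dkk2*. The stretches come from 8 of the 9 ranked members whose region stood highest by fold enrichment within the lists. They are read 5′ to 3′ on the plus strand of GRCm38, the assembly of mm10, from RefSeq. Capitals mark a TEAD motif (GGAATG or its reverse complement), an AP-1 motif (TGAGTCA or its reverse complement) or an E-box (CAGCTG), and a stretch without capitals holds none of these within the printed bases. The first 5 positions belong to regions found in non-SMC only. They are chr3:104945091-104945191 just past the 3′ end of *Wnt2b*, chr6:22280437-22280537 at -7.74 kb from the transcription start site (TSS) of *Wnt16*, chr4:137287316-137287416 in an intron of *Wnt4*, chr11:59294110-59294210 between *Wnt3a* and *Wnt9a* and chr7:112148154-112148254 in an intron of *Dkk3*.
Wnt2b: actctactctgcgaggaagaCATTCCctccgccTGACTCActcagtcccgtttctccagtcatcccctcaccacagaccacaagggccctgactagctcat
Wnt16: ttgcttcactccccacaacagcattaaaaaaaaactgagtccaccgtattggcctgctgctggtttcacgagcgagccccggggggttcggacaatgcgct
Wnt4: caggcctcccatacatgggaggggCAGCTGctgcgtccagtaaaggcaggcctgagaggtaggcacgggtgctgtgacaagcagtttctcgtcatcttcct
Wnt3a: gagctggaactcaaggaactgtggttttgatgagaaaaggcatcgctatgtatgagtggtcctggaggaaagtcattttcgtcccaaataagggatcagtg
Dkk3: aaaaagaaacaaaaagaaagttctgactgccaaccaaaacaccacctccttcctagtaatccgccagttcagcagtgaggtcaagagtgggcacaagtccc
The other 3 belong to regions found in SMC only. They are chr11:103808086-103808186 in an intron of *Wnt3*, chr19:42196654-42196754 downstream of *Sfrp5* and chr10:121055606-121055706 in an intron of *Wif1*.
Wnt3: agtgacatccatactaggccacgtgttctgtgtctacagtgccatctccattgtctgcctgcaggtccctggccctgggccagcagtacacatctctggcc
Sfrp5: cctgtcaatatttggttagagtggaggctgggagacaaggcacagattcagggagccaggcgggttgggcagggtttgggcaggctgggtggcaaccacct
Wif1: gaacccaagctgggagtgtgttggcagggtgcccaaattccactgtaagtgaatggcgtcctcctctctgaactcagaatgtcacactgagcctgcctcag

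The lists held 91057 peaks for SMC1, 153954 for SMC2, 115837 for non-SMC1 and 128710 for non-SMC2. Depth differed: the lowest local background, which follows the number of reads, ranged from 0.456 to 1.54, and the median pileup, the number of fragments stacked at a summit, from 5 to 10. Strong peaks, defined here by a -log10 q of at least 5, made up 38% of the list of non-SMC1 and 14.3% to 19.5% of the others, so non-SMC1 stood apart. Of the markers checked, *Chga* had promoter peaks in the SMC lines alone, and *Cd44*, *Vim* and *Wwtr1* had more of the listed peaks in both non-SMC lines than in either SMC line. So did *Pecam1*, *Sftpc* and *Scgb1a1*, which are markers of other cells, while *Chga*, *Insm1* and the leukocyte marker *Cd3e* had more in both SMC lines. None of *Cd44*, *Vim* and *Wwtr1* had promoter peaks in the non-SMC lines alone, but the endothelial marker *Pecam1* did. The other endothelial marker, *Cdh5*, went the other way, with 2, 2, 0 and 1 promoter peaks in SMC1, SMC2, non-SMC1 and non-SMC2. In the share of listed peaks, the loci of *Cdh5* and of the other leukocyte marker, *Ptprc*, overlapped between the types. The neuroendocrine markers *Ncam1* and *Syp* had promoter peaks in all 4 libraries and *Insm1* in all but non-SMC2, and promoters of the leukocyte, endothelial and airway markers held a peak in 0 to 2 of 2 genes a library. An exact two-sided permutation test of 2 lines against 2 cannot go below p = 0.333, so the types were not tested against each other, and differences are set against the spread between lines of a type and against the same count over all protein-coding genes. Because the lines of a type are few, a group of values that does not overlap is a description.

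As a group, the WNT loci held nearly the same share of the listed peaks in both cell types. The ligand loci held 125 peaks in SMC1, 160 in SMC2, 144 in non-SMC1 and 119 in non-SMC2, which is 0.137%, 0.104%, 0.124% and 0.0925% of the lists. The log2 ratio of SMC over non-SMC was 0.15, within the SD of 0.29 between lines of a type. Receptor loci, with 30, 55, 40 and 43 peaks in the same order, were the most even, at a log2 ratio of 0.015 with an SD of 0.063. The inhibitor loci held 29, 59, 53 and 38 peaks, with a log2 ratio of -0.10 and an SD of 0.34. With these 20 kb flanks and all listed peaks, no class differed between SMC and non-SMC by more than its lines did, and the same ratio over the loci of all protein-coding genes was 0.028. Other settings moved them: inhibitors were at -0.87 without flanks, receptors at 0.16 and 0.20 with flanks of 0 and 5 kb, and ligands at -1.31 with strong peaks alone.

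The strength of the peaks separated the types in the ligand loci more than their number did. Strong peaks numbered 5 of 125 in SMC1 and 10 of 160 in SMC2, against 43 of 144 in non-SMC1 and 23 of 119 in non-SMC2. These are 4.0% and 6.25% of the ligand peaks in SMC and 29.9% and 19.3% in non-SMC, and the 2 groups did not overlap. Over the loci of all protein-coding genes the shares were 14.8%, 17.7%, 38.4% and 21.1% in the same order, so the types were separate over all genes too, and the ligand share lay below that of all genes in each library. Receptor peaks were strong in 13.3%, 18.2%, 42.5% and 18.6%, and inhibitor peaks in 13.8%, 15.3%, 41.5% and 10.5%, where SMC2 and non-SMC2 lay within 1 percentage point for receptors, and non-SMC2 lay below both SMC lines for inhibitors. Strength depends on depth, which differed between the libraries, and the part of depth in these shares was not tested.

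**Figure D1:**
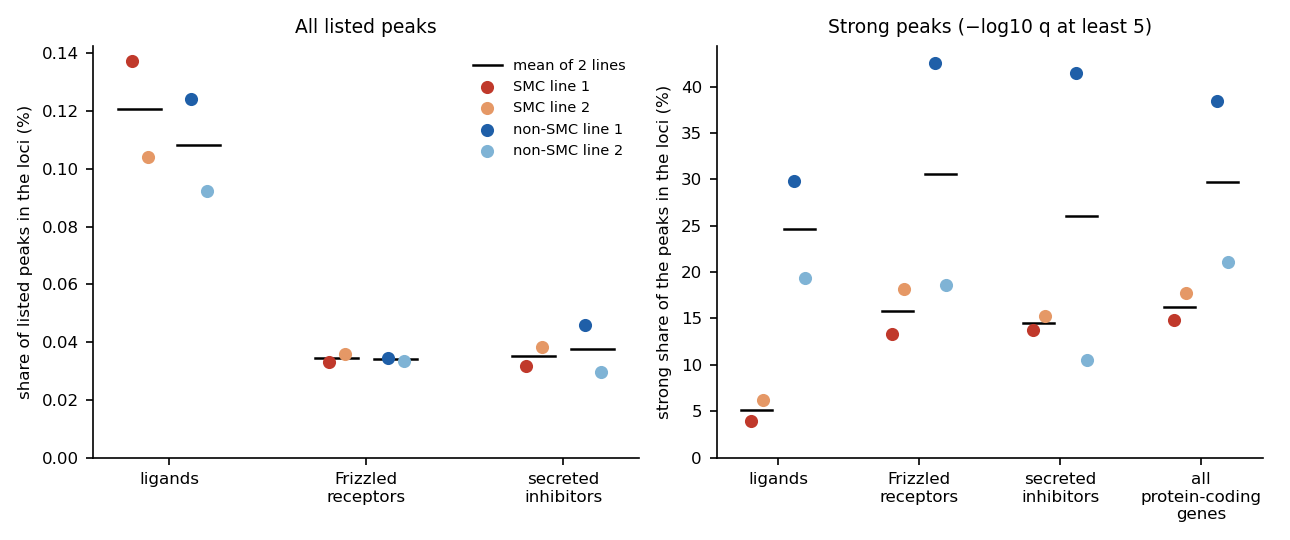
The left plot gives the share of all listed peaks (%) that lie in the loci of each class and the right plot the share of those peaks that were strong (%, -log10 q of at least 5), with 1 point per library and a black line at the mean of the 2 lines of a type. Ligand peaks were strong in 4.0% and 6.25% in SMC and in 29.9% and 19.3% in non-SMC, while the shares of all peaks overlapped for ligands, receptors and inhibitors.

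By locus, the share of listed peaks was higher in both SMC lines than in either non-SMC line for 9 of the 38 members, and lower in both for 6. The SMC side held *Wnt2b*, *Wnt3*, *Wnt6*, *Fzd3*, *Fzd4*, *Fzd9*, *Sfrp5*, *Wif1* and *Axin2*, and the non-SMC side *Wnt4*, *Wnt16*, *Fzd1*, *Fzd2*, *Sfrp4* and *Dkk3*. Among all protein-coding genes 19.1% were higher in both SMC lines and 17.4% in both non-SMC lines, so neither count stood apart from other genes. Counting strong peaks instead, 12 loci had more in both non-SMC lines (*Wnt1*, *Wnt2b*, *Wnt3a*, *Wnt4*, *Wnt5b*, *Wnt7b*, *Wnt9a*, *Wnt10b*, *Wnt16*, *Fzd2*, *Fzd8* and *Dkk3*) and 2 had more in both SMC lines (*Wnt3* and *Fzd3*), beside 24% and 3.26% of all protein-coding genes. The 12 included 9 of the 19 ligands. These are not all separate loci, since *Wnt1* and *Wnt10b*, and *Wnt3a* and *Wnt9a*, overlap and share strong peaks.

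**Figure D2:**
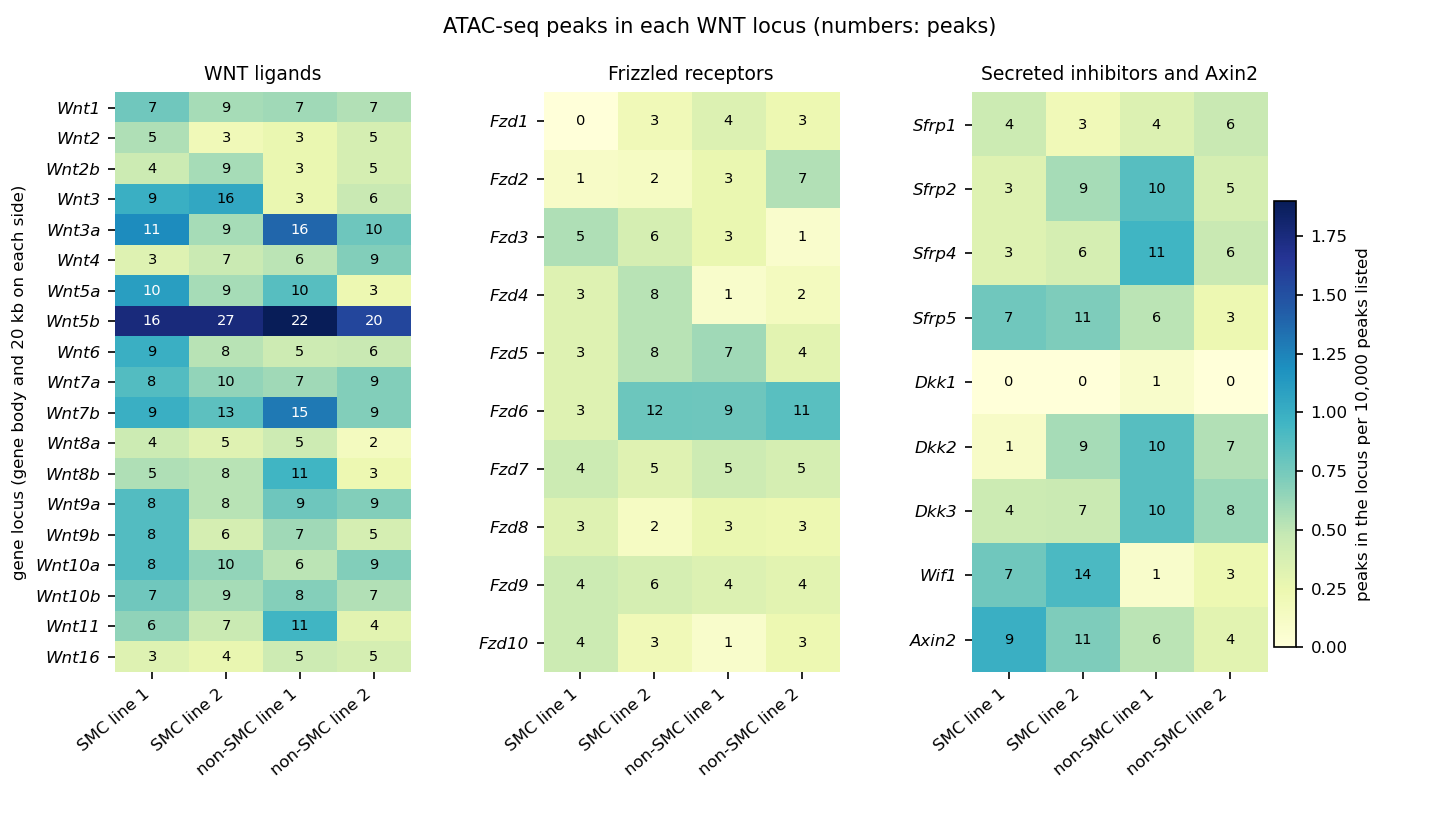
Each row is a WNT locus and each column a library. The number is the count of peaks in the locus and the color the peaks per 10000 listed, from 0 (pale) upward. *Wif1* (7, 14, 1 and 3 peaks) and *Wnt3* (9, 16, 3 and 6) are darker in the SMC columns, *Dkk3* (4, 7, 10 and 8) and *Fzd2* (1, 2, 3 and 7) in the non-SMC columns, and *Wnt5b*, the longest ligand locus, is dark throughout.

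Among the ligands, *Wnt3*, a ligand that signals through β-catenin, was the clearest case on the SMC side. Its locus held 9 peaks in SMC1 and 16 in SMC2, against 3 in non-SMC1 and 6 in non-SMC2. Per 10000 listed peaks this was 0.988, 1.04, 0.259 and 0.466, so the lines of the 2 types were separate. A pair of regions in its gene body had peaks in the SMC lines alone. The region chr11:103800816-103801727, in an intron 27.2 kb from the TSS, had a fold enrichment of 4.06 in SMC1 and 8.48 in SMC2, and the second at chr11:103808018-103808235 had 5.78 and 4.34. The second is the SMC region whose sequence is printed above. *Wnt3* was also the only ligand with a promoter open in SMC alone, but its promoter peaks were weak, and the call was lost when each list was cut to its top 91057 peaks. In SMC1 they lay at -1.44 and -0.963 kb from the TSS with pileups of 5 and 3, and in SMC2 at -0.349, 2.37 and 2.77 kb with pileups of 8, 9 and 9, and none of the first overlapped any of the second.

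*Wnt2b*, which acts beside *Wnt2* in lung specification, had 4, 9, 3 and 5 peaks, numbers that overlapped between the types. It counted as higher in SMC by the share of listed peaks, at 0.439, 0.585, 0.259 and 0.388 per 10000. Its strong peaks ran the other way, with 0 in both SMC lines, 3 in non-SMC1 and 1 in non-SMC2. The region chr3:104944799-104945586, which spans the 3′ end of the gene 16.8 kb from the TSS, had the highest fold enrichment of any member peak in non-SMC1 and in non-SMC2, at 16.4 and 15.4. Those peaks ranked at percentiles 99.0 and 99.6 of their lists, with pileups of 104 and 37 fragments, while SMC had no peak there. The printed sequence at its summit holds both a TEAD and an AP-1 motif.

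*Wnt16*, known for its role in cortical bone, had 3, 4, 5 and 5 peaks. Its promoter was open in all 4 libraries, at 0.662 kb from the TSS in SMC1 with a percentile of 80.5, while the region chr6:22280069-22280961 at -7.74 kb was found in non-SMC alone. There the fold enrichment was 10.9 in non-SMC1 and 8.05 in non-SMC2, at percentiles 92.3 and 91.7. *Wnt4*, a ligand of kidney and reproductive tract development, had 3, 7, 6 and 9 peaks and a pair of non-SMC regions. Its shares were 0.329, 0.455, 0.518 and 0.699 per 10000, so SMC2 lay close to non-SMC1 and had more peaks by number. In the intronic region chr4:137287243-137287678 the fold enrichment was 6.32 and 7.64, and its printed sequence holds an E-box. Within 100 bp of the summit, outside the printed bases, the region also holds an AP-1 motif. *Wnt6*, expressed in many epithelia, had 9, 8, 5 and 6 peaks, or 0.988, 0.520, 0.432 and 0.466 per 10000, so SMC2 lay close to the non-SMC lines. It shares its flank with *Wnt10a*, and the peak inside *Wnt6* 1.38 kb from its TSS was present in all 4 libraries.

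*Wnt3a*, the ligand most used to activate β-catenin in culture, was the only ligand whose promoter window, the 6 kb centered on the TSS, was open in non-SMC alone. The main peak, at -3.41 kb in non-SMC1, reached into this window only by its edge and lay between *Wnt3a* and *Wnt9a*. In non-SMC2 the peak of this region lay at -3.33 kb, wholly outside the window. The fold enrichment of this region was 7.99 in non-SMC1 and 5.31 in non-SMC2, with pileups of 45 and 11, and both SMC lines had no peak there. Inside the window non-SMC1 had a peak at -1.65 kb with a pileup of 23. The only peak of non-SMC2 in the window was weak, at -1.92 kb with a pileup of 7, and did not overlap it. With a 2 kb window *Wnt3a* was no longer non-SMC-only. In the whole locus the 4 libraries overlapped, with 11, 9, 16 and 10 peaks.

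*Wnt7b* was outside the rule for named genes and was chosen after its values were seen. Its locus had 9, 13, 15 and 9 peaks, of which 0, 0, 9 and 3 were strong. In an intron 7.71 kb from the TSS, chr15:85574204-85575211, the fold enrichment was 14.3 in non-SMC1 and 11.5 in non-SMC2, at percentiles 97.5 and 97.6. SMC2 had a peak there of 2.43 at percentile 13.3 and SMC1 had none. A further strong region in both non-SMC lines lay 58.8 kb from the TSS, past the end of the gene, where SMC1 had a peak at percentile 74.2. *Wnt5b*, with the longest ligand locus, had 16, 27, 22 and 20 peaks, which is 1.76, 1.75, 1.90 and 1.55 per 10000 and shows no separation of the types. The ligands not named here had between 2 and 11 peaks a library, and only *Wnt8b* had no peak in its promoter window in any library.

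The Frizzled genes, most of which are short, more often had their highest peak near the TSS than the other classes, as a count with no test. The highest peak of the locus was within 3 kb of the TSS for 7 of 9 receptors with a peak in SMC1, 6 of 10 in SMC2, 8 of 10 in non-SMC1 and 6 of 10 in non-SMC2. For the 19 ligands the counts were 1, 5, 2 and 2, and for the inhibitors 1 of 7, 0 of 7, 2 of 8 and 1 of 7. Over all protein-coding genes 37.3%, 36.5%, 30.6% and 31.1% had it there. The median gene was 5.25 kb long among receptors, 22.2 kb among ligands, 24.0 kb among inhibitors and 17.4 kb among all genes, and the part of length in this difference was not tested.

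*Fzd4*, *Fzd5*, *Fzd7*, *Fzd8* and *Fzd9* had a promoter peak in every library. For *Fzd5* and *Fzd7*, chosen after their values were seen, the highest peak of the locus lay just upstream of the TSS in all 4, at percentiles of 75.4 to 95.6 for *Fzd5* and 82.4 to 95.6 for *Fzd7*. For *Fzd8*, also chosen after its values were seen, it lay at 1.15, 1.04, -0.071 and 1.09 kb from the TSS, at percentiles of 85.3 to 88.5, and the SMC lines and non-SMC2 had a separate, lower peak at the TSS. At the TSS of *Fzd4*, a receptor for both WNTs and norrin, the fold enrichment was 7.47, 8.02, 11.9 and 9.03, and these peaks ranked at percentiles 92.9, 94.8, 94.3 and 94.0 of their lists. It was the only member region in the highest 10% of all 4 lists. By number of peaks *Fzd4* was higher in SMC, with 3, 8, 1 and 2, and apart from the TSS these were peaks at or under percentile 65.1. The neighboring gene *Tmem135* has its TSS 89 bp from this peak, so both promoters cannot be told apart.

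By share of listed peaks, *Fzd2* and *Fzd1* lay on the non-SMC side. *Fzd2*, a receptor of both β-catenin and other WNT signals, had 1, 2, 3 and 7 peaks and was the only receptor with a promoter open in non-SMC alone. At -0.114 kb from the TSS in non-SMC1 the fold enrichment was 7.37 with a pileup of 32, and in non-SMC2 it was 6.13 with a pileup of 14. Neither SMC line had a peak in the promoter window, the nearest being 6.42 kb from the TSS in SMC1 and 6.91 kb in SMC2. *Fzd1* had 0, 3, 4 and 3 peaks, or 0, 0.195, 0.345 and 0.233 per 10000, so SMC2 and non-SMC2 were equal in number and lay close. Its strong peaks numbered 0, 2, 3 and 1, with more in SMC2 than in non-SMC2. Its promoter peak had a fold enrichment of 5.72 in SMC2, 10.4 in non-SMC1 and 10.6 in non-SMC2, and SMC1, the library with the fewest peaks, had none in the locus.

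On the SMC side, *Fzd3*, a receptor of axon guidance and planar cell polarity, had 5, 6, 3 and 1 peaks. Its promoter peak had a fold enrichment of 6.60 at percentile 89.9 in SMC1 and 6.02 at percentile 89.7 in SMC2, against 3.65 at percentile 51.1 in non-SMC1 and no peak in non-SMC2. It was the only member whose promoter peak was strong in the SMC lines alone. The next peak, at -4.13 kb, is at the TSS of *Fbxo16*.

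*Fzd10* was the only receptor with promoter peaks in SMC alone. They were weak, at -0.194 kb with a pileup of 4 and 0.520 kb with a pileup of 6 in SMC1, and at -0.220 kb with a pileup of 9 in SMC2. In the whole locus *Fzd10* had 4, 3, 1 and 3 peaks, so SMC2 and non-SMC2 were equal in number. *Fzd9* had 4, 6, 4 and 4 peaks, or 0.439, 0.390, 0.345 and 0.311 per 10000, a narrow separation, and no strong peak in any library. *Fzd6*, chosen after its values were seen, had 3, 12, 9 and 11 peaks. Past its 3′ end, at chr15:39043256-39043698, a region of non-SMC alone had a fold enrichment of 8.6 and 9.21.

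Among the inhibitors, *Wif1* separated the types most by the share of listed peaks. The gene encodes a secreted protein that binds WNT ligands directly, and its locus held 7 peaks in SMC1, 14 in SMC2, 1 in non-SMC1 and 3 in non-SMC2. Per 10000 listed peaks this was 0.769, 0.909, 0.0863 and 0.233. Of these peaks 1, 3, 1 and 0 were strong, so SMC1 and non-SMC1 were equal by that count. The promoter was open in all 4 libraries, with a highest fold enrichment of 3.79, 6.20, 6.03 and 5.49, and the regions found in SMC alone lay away from it. In the intronic region chr10:121055503-121055746, 21.7 kb from the TSS, the fold enrichment was 6.18 in SMC1 and 5.6 in SMC2, both at percentile 88.1. At chr10:121019688-121019842, -14.2 kb from the TSS, it was 5.06 and 7.05, and neither non-SMC line had a peak in either region.

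*Sfrp5*, a secreted Frizzled-related protein, had 7, 11, 6 and 3 peaks, and 0.769, 0.714, 0.518 and 0.233 per 10000. Its strong peaks numbered 1, 3, 1 and 0, so SMC1 and non-SMC1 were equal by that count. The locus held 3 regions of SMC alone, the most of any member together with *Wnt3*. Downstream of the gene, at chr19:42196350-42197362, the fold enrichment was 6.88 at percentile 91.2 in SMC1 and 7.61 at percentile 94.1 in SMC2. This was the only member region in the highest 10% of both SMC lists and of neither non-SMC list. The 6 kb promoter window of *Sfrp5* held a peak in all 4 libraries, but the SMC peaks lay at -2.18 to -2.61 kb. The peaks nearest the TSS, at 0.487 and 0.508 kb, were weak and in the non-SMC lines alone, so that the locus also held 1 non-SMC-only region and a 2 kb window turned its promoter to non-SMC-only.

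On the non-SMC side, *Dkk3* had 4, 7, 10 and 8 peaks. *Dkk3* is the divergent Dickkopf gene, which unlike *Dkk1* and *Dkk2* is not known as a ligand of the LRP co-receptors. Its strong peaks numbered 0 in both SMC lines, 6 in non-SMC1 and 1 in non-SMC2, and they lay inside the gene. In the intronic region chr7:112147990-112148435 the fold enrichment was 9.71 in non-SMC1 and 4.61 in non-SMC2. *Sfrp4*, another secreted Frizzled-related gene, had 3, 6, 11 and 6 peaks. The peak shared by all 4 libraries lies 153 bp from the TSS of the neighbor *Epdr1*, and a region of non-SMC alone at chr13:19604440-19604880, in an intron of *Epdr1*, had a fold enrichment of 13.3 in non-SMC1 and 3.66 in non-SMC2. Inside *Sfrp4* itself, 5.15 kb from the TSS, a second such region had 3.71 and 6.10.

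*Sfrp1* was the only inhibitor with a promoter open in non-SMC alone. At -0.107 kb from its TSS the fold enrichment was 5.98 with a pileup of 17 in non-SMC1, and at -0.077 kb it was 3.42 with a pileup of 5 in non-SMC2. The SMC lines had peaks just outside the promoter window, at -3.63 kb and -3.44 kb, and the whole locus overlapped between types with 4, 3, 4 and 6 peaks. *Dkk1*, a feedback inhibitor, was nearly without peaks, with 0, 0, 1 and 0, and this peak had a percentile of 6.47. *Dkk2*, chosen after its values were seen, had 1, 9, 10 and 7 peaks and in its intron, at chr3:132113718-132114237, a region of non-SMC alone with a fold enrichment of 7.32 and 10.5.

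*Axin2*, the β-catenin target, had 9 and 11 peaks in the SMC lines and 6 and 4 in the non-SMC lines. The share of listed peaks had a log2 ratio of 1.04 with an SD of 0.44 between lines, and within the line pairs it was 0.93 and 1.2. The promoter was open in every library, with peaks of fold enrichment 3.88 at -0.112 kb in SMC1, 2.71 at 0.055 kb in SMC2, 4.61 in non-SMC1 and 4.27 in non-SMC2. The added SMC peaks were mostly weak: strong peaks numbered 0, 1, 1 and 0.

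**Figure D3:**
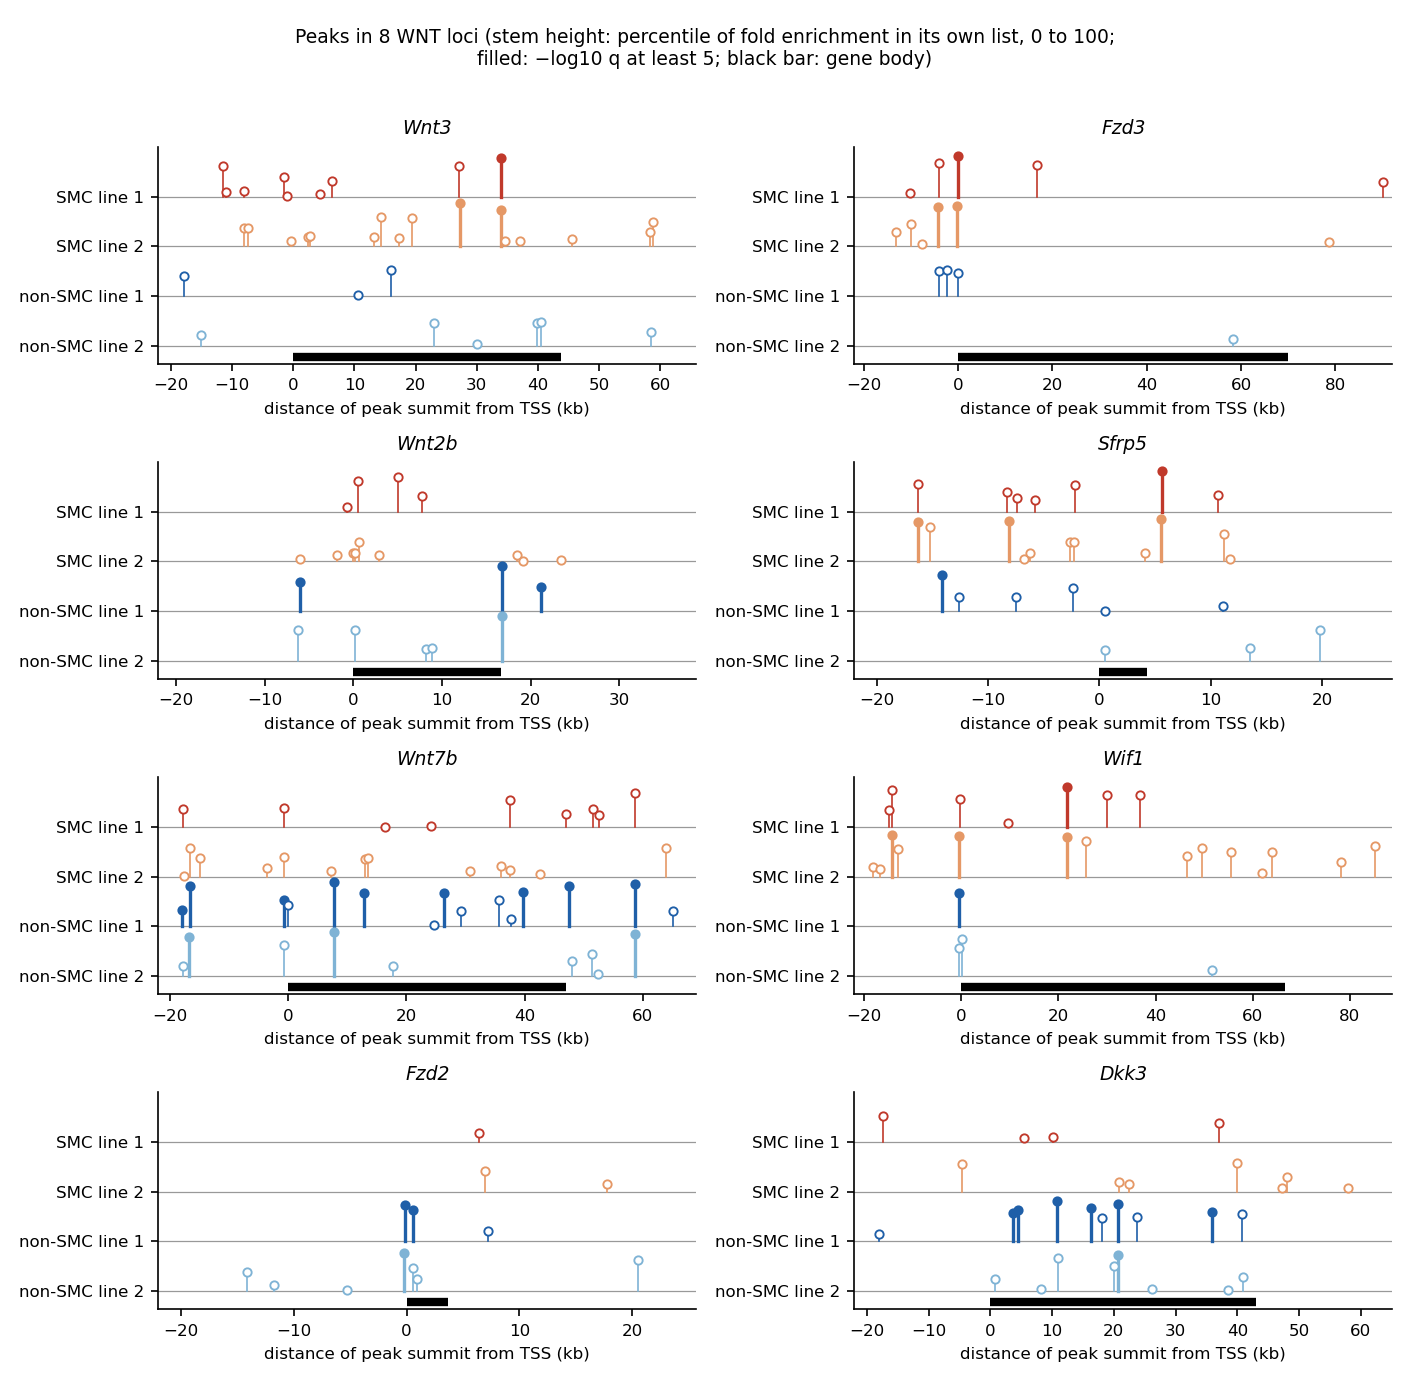
Peaks of the 4 libraries in 8 loci by the distance of their summit from the TSS (kb), with the gene body as a black bar. The height of a stem is the percentile of fold enrichment in its own list and filled points are strong peaks (-log10 q of at least 5). Strong stems stand at the 3′ end of *Wnt2b*, in *Wnt7b*, at the promoter of *Fzd2* and inside *Dkk3* in non-SMC, and at the promoter of *Fzd3*, downstream of *Sfrp5* and inside *Wif1* and *Wnt3* in SMC.

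Over all members, the 4 lists merged to 669 regions, of which 515, or 77.0%, had a peak in 1 library. SMC-only regions, with a peak in each SMC line and none in non-SMC, numbered 23 (3.44%), non-SMC-only regions 35 (5.23%), and 24 regions had a peak in all 4. In the loci of all protein-coding genes 4.28% of regions were SMC-only and 7.17% non-SMC-only. Both shares over all members lay below these, but not in every class. Ligand loci lay below both, at 2.51% and 4.01%, and receptor loci above both, at 5.26% and 8.77%. Inhibitor loci, at 4.55% and 6.82%, lay above the SMC-only share and below the non-SMC-only share. By class, SMC-only and non-SMC-only regions numbered 10 and 16 of 399 for ligands, 6 and 10 of 114 for receptors and 6 and 9 of 132 for inhibitors. The share of non-SMC-only among the regions of only 1 type was 61.5%, 62.5% and 60.0%, nearly equal between classes, and 60.3% over all members (95% Wilson interval 47.5% to 71.9%, counting error only), against 62.6% over all protein-coding genes.

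Among strong regions alone the counts by class were uneven, and small. Of 54 strong ligand regions 15 were strong in both non-SMC lines only and 1 in both SMC lines only, of 21 receptor regions 3 and 1, and of 31 inhibitor regions 2 and 2. No strong ligand region was strong in all 4 libraries, against 3 receptor regions and 1 inhibitor region. Over the loci of all protein-coding genes 19.7% of strong regions were non-SMC-only, 5.58% SMC-only and 9.49% strong in all 4, beside 27.8%, 1.85% and 0 for ligands and 18.5%, 3.70% and 3.70% for all members. Taking the highest 10% of each list by fold enrichment, a measure that gives every library the same share of its peaks and was chosen after seeing the data, left 23 member regions. Of these 5 were in the highest 10% of both non-SMC lists and of neither SMC list, at *Wnt2b*, *Wnt16*, the *Fzd1* promoter and a pair at *Wnt7b*. The reverse held for 1, at *Sfrp5*. These are 21.7% and 4.35% of the 23, against 14.3% and 11% of such regions over all protein-coding genes. SMC2 had a strong peak at the *Fzd1* promoter at percentile 88.4, and each of the *Wnt7b* pair had a peak below the cut in 1 SMC line.

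**Figure D4:**
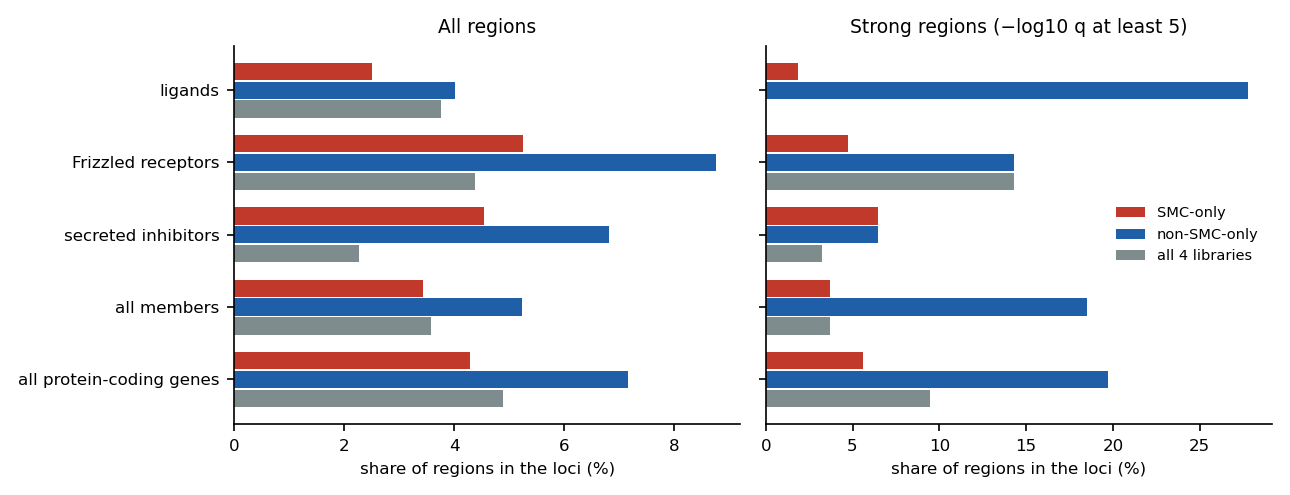
Share of the merged regions (%) in the loci of each class that had a peak in both SMC lines only, in both non-SMC lines only, or in all 4 libraries, for all regions on the left and for strong regions on the right. In the right plot the non-SMC-only share of ligands reaches 27.8% with none in all 4 libraries, while inhibitors have equal shares of 6.45% for both types.

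Few members had a promoter that was open in 1 type only. A promoter peak was found for 29, 30, 30 and 28 of the 38 members in the 4 libraries, and 19 (50%) had one in all 4. The counts by library are 76.3%, 78.9%, 78.9% and 73.7% of the members. Over all protein-coding genes 62.2%, 69.3%, 64.6% and 64.9% had a promoter peak and 48.7% had one in all 4. A promoter peak was thus more common among the members in each library, while the share open in all 4 was alike. *Wnt3* and *Fzd10* were open in SMC alone and *Wnt3a*, *Fzd2* and *Sfrp1* in non-SMC alone. These are 5.26% and 7.89% of the members, against 3.08% and 2.45% of all protein-coding genes, so both shares lay above, from 2 and 3 genes. No promoter peak was found for *Wnt8b* and *Dkk1* in any library, which is 5.26% of the members against 19.2% of all protein-coding genes. Of the 57 genes of a wider WNT list (co-receptors, R-spondins and their receptors, the β-catenin complex, TCF/LEF factors, polarity genes), 34 had an open promoter in all 4 libraries, beside 48.7% of all protein-coding genes. Only *Sostdc1*, a secreted antagonist, was open in SMC alone, with 1, 1, 0 and 0 promoter peaks, and only *Celsr2*, a polarity cadherin, in non-SMC alone, with 0, 0, 1 and 1. By share of listed peaks in the locus, 14 of the 57 were higher in both SMC lines and 9 in both non-SMC lines, near the 19.1% and 17.4% of all protein-coding genes.

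In regions of either type alone, motifs were searched on either strand up to 100 bp from the summit. Of the 35 non-SMC-only regions of the WNT loci, 9 held the AP-1 motif TGAGTCA (25.7%, 95% Wilson interval 14.2% to 42.1%), against 46.8% of the 26224 such regions of the genome. The TEAD motif GGAATG was in 4 (11.4%) against 19.3%. Of the 23 SMC-only regions, 8 held the E-box CAGCTG (34.8%, interval 18.8% to 55.1%), against 21.1% of 15618, and 1 held the AP-1 motif against 4.19%. The TCF/LEF motif CTTTGAT was in 0 of 23 and 1 of 35, against 2.86% and 2.63%. A match of letters is not a bound site.

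**Figure D5:**
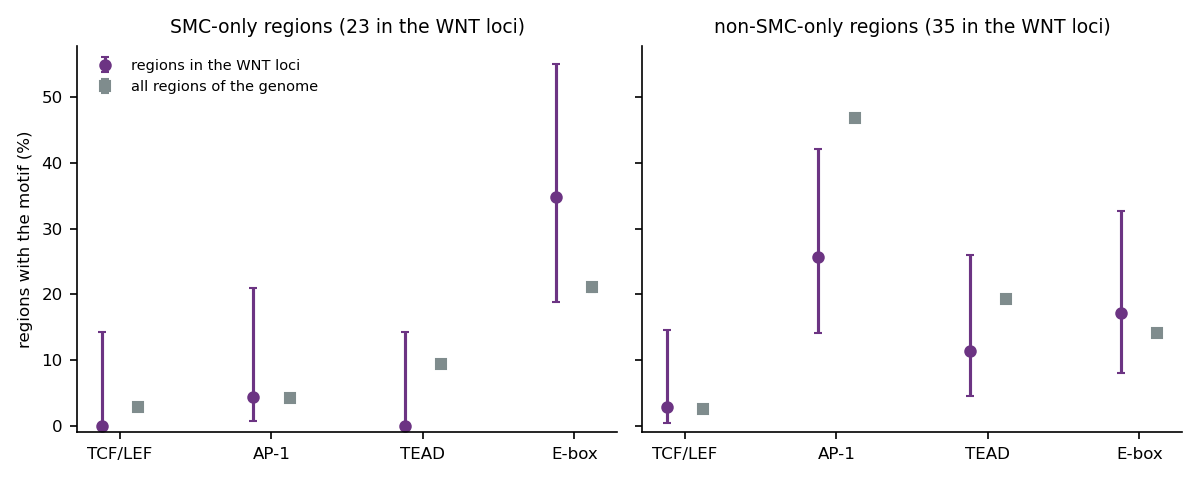
Share of SMC-only regions (left) and non-SMC-only regions (right) that hold each motif within 100 bp of the summit (%), for the regions in the WNT loci (circles) and all such regions of the genome (squares), with 95% Wilson intervals. The AP-1 share of the WNT regions in non-SMC, 25.7%, lies below the 46.8% of all regions, while in each of the other comparisons the interval of the WNT regions spans the genome share.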

How the data were processed

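ATAC-seq peak lists of 4 libraries (SMC lines 1 and 2, non-SMC lines 1 and 2) were analysed. The authors mapped reads to mm10 with Bowtie2 2.3.4, took out duplicate reads (sambamba) and called the peaks of each library alone by MACS2 2.1.1, and the settings of the calls are not given in the sources used here. For each peak the authors deposited a fold enrichment (the ratio of the summit to its local background), the -log10 of p and of q, a score, and the summit position. The deposited score was not used. These values depend on depth, so peaks were ranked within a list, and peaks of different lists sharing 1 base or more were merged.

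Peaks outside chromosomes 1 to 19, X and Y (61 to 85 per library) were left out. Positions were matched to the protein-coding genes of GENCODE M21, with no peak past a chromosome end of GRCm38. The 38 members and all gene lists were chosen with earlier results of these data known. Members described with all their values are those with a promoter open in 1 type only, the up to 4 per class and direction with the largest difference in the share of listed peaks, and *Axin2*. Regions called SMC-only had a peak in each SMC line and none in non-SMC, and the reverse defines non-SMC-only. Pileup and background were recovered from fold enrichment and p for all but 3 to 5 peaks a library, since MACS2 adds 1 to each before dividing. Recovery and overlaps were tested on simulated data. Intervals are 95% Wilson and cover counting error only. Python 3.11.15, pandas 2.3.3, scipy 1.17.1 and pysam 0.24.0 were used. Alternatives tried were strong peaks only (-log10 q of 5 or more), 91057 top peaks per list, flanks of 0, 5 and 50 kb, a 2 kb promoter, every transcript's TSS, a reciprocal overlap of 50%, peaks placed by summit, motif windows of 50 and 250 bp, each library left out, and a mean within line pairs. Leaving out promoter peaks of non-member genes and keeping the highest 10% of each list were added after seeing the data. A marker gene and a sequence are not reported here.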

Additional observations from a re-analysis of the deposited data

Results flagged for a closer look

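In 2 of the 3 classes the line pairs moved in opposite directions in the share of listed peaks. For the receptor loci the log2 ratio of SMC over non-SMC was -0.068 in line pair 1 and 0.097 in line pair 2. For the inhibitor loci it was -0.52 in pair 1 and 0.38 in pair 2, with *Dkk2* (1 peak in SMC1 and 10 in non-SMC1, against 9 and 7 in pair 2) among the loci that turned. The difference between pairs was not tested, since each pair is 1 line of each type.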

How the results depend on the processing

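Of the log2 ratios of the share of peaks, that of ligands moved from 0.15 to -1.31 with strong peaks only, and that of all members from 0.11 to -0.62. That of receptors was 0.16, 0.20 and -0.057 with flanks of 0, 5 and 50 kb, and that of inhibitors -0.87 with none. Leaving out 1 library gave ranges of -0.061 to 0.38 for ligands, -0.044 to 0.073 for receptors, -0.38 to 0.25 for inhibitors (highest without non-SMC1) and -0.079 to 0.32 for all members. The labels call the lines pairs. Deviations of SMC1 and non-SMC1 from their type means correlated at 0.089 over 21938 loci. With 2 pairs, and depth lower in line 1 for SMC but in line 2 for non-SMC, this value cannot show pairing or its absence. The pairing is left to the labels. The mean within pairs (the replicate block) was 0.16, 0.015, -0.073 and 0.12 for ligands, receptors, inhibitors and all members. The non-SMC-only share of regions of 1 type was 93.8% for ligands and 83.3% for all members with strong peaks, 87.5% for inhibitors without flanks, and in the highest 10% of each list 100%, 100%, 0% and 83.3% in the same class order, from 4, 1, 1 and 6 regions. Leaving out a library moved it to 15.8% to 88.0% for ligands, 22.4% to 81.3% for receptors, 17.6% to 86.7% for inhibitors and 16.9% to 86.2% for all members, since the type with 1 line left then needs only 1 peak. Members with an SMC-only promoter numbered 1 (*Fzd3*) with strong peaks, 4 with a 2 kb window and 2 to 7 with a library left out, and those with a non-SMC-only promoter 2 (*Wnt1* and *Fzd2*) with strong peaks and 3 to 5 with a library left out. With each list cut to its top 91057 peaks *Wnt3* was no longer among the SMC-only promoters (*Wnt8a* and *Fzd10*). *Fzd2* had a non-SMC-only promoter in each of these settings. In SMC-only regions the AP-1 share was 0 in the 4 strong regions, the TEAD share 21.7% within 250 bp, and the E-box share 13.0% within 50 bp, 60.9% within 250 bp and 0 in strong regions, and in non-SMC-only regions the TEAD share was 40% within 250 bp. No genome share is given for these windows or for strong regions, so these values cannot be set against the genome shares within 100 bp. Leaving out promoter peaks of other genes moved none of the class values past the spread. Depth limits every absence: a peak missing in SMC1, the shallowest library, need not be closed chromatin.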
